A study of Homo sapiens with 10 samples.

Results

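The genes described here encode the proteins of the cytosolic ribosome, 52 of the large (60S) subunit and 33 of the small (40S) subunit. They were taken by name, as RPL or RPS followed by a number and at most a letter and a digit, together with RPSA, RPLP0, RPLP1 and RPLP2. RPS27L, the RPS6K kinase genes and pseudogenes named with a P suffix were left out. The rule found 85 genes on 91 rows in each of 2 expression tables, of 23416 genes (siRNA) and 23426 genes (miRNA). The cells were SH-SY5Y, an established human neuroblastoma line of neuroblast-like character, grown in DMEM/F12 medium with serum. Of the siRNA libraries, 3 came from cells given 100 nM of an siRNA directed at LncND, a primate long non-coding RNA, and 3 from cells given a scrambled siRNA. Of the miRNA libraries, 2 came from cells given 50 nM of a mimic of the microRNA miR-143-3p and 2 from cells given a scrambled miRNA. All cells were harvested at 72 h, and poly(A) RNA was sequenced. Whether the replicates came from separate cultures is not in the labels, and each p-value therefore rests on library-to-library spread that may be technical.

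A ribosome is built from ribosomal RNA and a fixed set of proteins, each made from its own nuclear gene and needed in about equal numbers. In vertebrates most of these mRNAs begin with a C followed by a run of pyrimidines, the 5′ terminal oligopyrimidine (TOP) tract, through which mTOR and the protein LARP1 control their translation and stability together. Many ribosomal protein genes have processed pseudogenes whose sequence is nearly that of the mRNA, so that sequencing reads can be assigned to more than 1 place. A few members have a like gene (a paralogue), such as RPL22 and RPL22L1 or RPS4X and the Y-linked RPS4Y1.

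The start of the mRNA is the sequence these genes share, and it is shown for the genes whose levels are described in most detail below. Each window runs from 10 bases before to 20 bases from the RefSeq start of transcription (GRCh38.p14), 5′ to 3′ on the strand of the gene. Capitals mark the run of C and T that begins with a C at the start position, and windows without capitals have no such run of 5 or more bases there. The first 5 genes had the largest falls with LncND siRNA, the next 3 were among the largest rises with the mimic, and the last 4 are 2 pairs of like genes. RPL15 and RPS4X, also among the largest rises with the mimic, are not shown and have no such run at the start in any window.
RPS28 (chr19:8321486-8321515, plus strand): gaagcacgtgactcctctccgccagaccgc
RPL14 (chr3:40457329-40457358, plus strand): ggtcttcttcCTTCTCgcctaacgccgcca
RPS13 (chr11:17077648-17077677, minus strand): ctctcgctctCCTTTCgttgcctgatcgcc
RPS25 (chr11:119018324-119018353, minus strand): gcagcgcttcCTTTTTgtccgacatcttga
RPL13A (chr19:49487598-49487627, plus strand): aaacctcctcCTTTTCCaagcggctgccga
RPL34 (chr4:108620566-108620595, plus strand): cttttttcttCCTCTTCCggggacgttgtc
RPL37A (chr2:216498834-216498863, plus strand): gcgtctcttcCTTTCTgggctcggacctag
RPS18 (chr6:33272065-33272094, plus strand): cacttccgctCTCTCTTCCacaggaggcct
RPL22 (chr1:6199576-6199605, minus strand): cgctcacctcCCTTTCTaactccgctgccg
RPL22L1 (chr3:170870176-170870205, minus strand): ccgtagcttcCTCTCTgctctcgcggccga
RPL26 (chr17:8383174-8383203, minus strand): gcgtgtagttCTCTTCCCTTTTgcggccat
RPL26L1 (chr5:172958719-172958748, plus strand): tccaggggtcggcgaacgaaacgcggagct
The mature microRNA that the mimic stands for is also given, from RefSeq (GRCh38.p14, chr5:149428978-149428998, plus strand), with its seed, bases 2 to 8, in capitals.
hsa-miR-143-3p: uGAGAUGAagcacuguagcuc

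Of the members, 68 had at least 1 start window, 84 windows in all. A run of at least 5 pyrimidines that begins with a C at the start stood in 48 of these 68 genes (70.6%), against 5.14% of all 27305 genes with a window and 4.98% of the 27237 that are not members. It stood in 29 of 42 large subunit genes and in 19 of 26 small subunit genes. The tract of RPL26 has no counterpart in the windows of its like gene RPL26L1, whereas RPL22 and RPL22L1 both have one. The search was on the strand of the gene at the annotated start only, so a tract a few bases away from that start is not counted.

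Libraries of a group resembled each other more (log2 levels over all genes correlated at 0.988 or above) than libraries of different groups (0.968 or below). Depth, estimated roughly from the steps between low values of 6 to 22 genes a library, was 13.4 to 43.8 M fragments. LncND itself had no row and was not analysed here. The line was checked against 10 sympathoadrenal neuroblast markers. Of these, 9 were at 37.2 FPKM or more in every library, while TH, the first enzyme of catecholamine synthesis, was at 0.039 to 0.438 FPKM. Of 10 markers of other cells, 8 were below the level needed for a test, among them EPCAM, PECAM1 and PTPRC. The other 2, S100B and COL1A1, were at 2.06 to 6.06 FPKM and changed with the treatments. S100B was at 5.92 ± 0.126 FPKM with LncND siRNA, against 3.06 ± 0.0425 FPKM (0.77), and fell with the mimic (-0.35), while COL1A1 fell with both (-0.25 and -0.63, all 4 past the limma threshold). The part of other cells in the results below was not tested.

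Levels are FPKM, fragment counts scaled to transcript length and to the mapped fragments of a library. How well that scaling holds between genes was not tested, in particular for short transcripts such as RPS27 (median of 359 bases in GENCODE). Among the 76 members left without like genes and RPL21, all were above 100 FPKM in each group. Their median level was 1050 FPKM with LncND siRNA and 1069 FPKM with scrambled siRNA. In the miRNA table it was 1310 FPKM with the mimic and 1129 FPKM with scrambled miRNA. RPS27, a zinc-binding protein of the 40S subunit, was the highest in each of the 4 groups, and RPL41, the shortest protein of the ribosome, and RPS18, a protein of the 40S head, followed it in both tables. At the low end stood RPL27A, at 140 FPKM with LncND siRNA, 160 FPKM with scrambled siRNA and 166 FPKM with the mimic, and RPL13, at 157 FPKM with scrambled miRNA. In FPKM the highest member thus stood 29.9 to 39.5 times above the lowest, depending on the group, for proteins that the ribosome holds in about equal numbers. The part of the length scaling in this ratio was not tested. Across the 80 members with stable values, log2 levels in the 2 scrambled controls correlated at a Pearson r of 0.993. Those points share gene length and sequence, and the tables were quantified separately.

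Summed over members, FPKM was 92123, 80665 and 80360 with LncND siRNA, against 89385, 89541 and 94337 with scrambled siRNA. The LncND siRNA libraries overlapped the controls through replicate 1 alone. The sum was 102420 and 108860 with the mimic, against 94947 and 90779 with scrambled miRNA, and these groups did not overlap. As a share of the FPKM over rows of 300 bp or longer, members took 20.2% ± 0.87 with LncND siRNA and 21.9% ± 0.31 with scrambled siRNA (SD, n = 3 each). The share was 24.1% ± 0.58 with the mimic and 20.9% ± 0.41 with scrambled miRNA (SD, n = 2 each). No test was made of these sums.

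The siRNA libraries address what targeting LncND does to expression. With LncND siRNA the ribosomal protein genes moved little as a group, and most of those that changed fell. Among 81 members with a mean of at least 1 FPKM, 25 fell (30.9%) and 3 rose (3.70%) at a limma adjusted p under 0.05, and 53 did not pass. Under quantile normalization 36 fell and 14 rose (37.0% and 31.9% of all genes tested). With no filter on low values 13 of 85 fell and 0 rose by limma (2 higher at an unadjusted p under 0.05), against 15.1% and 21.4% of all genes. The other 4 members, RPL3L, RPL10L, RPS4Y1 and RPS4Y2, were below that level and were not tested. Of all 12601 genes tested, 30.3% fell and 36.6% rose, so the share of members that fell was near that of all genes, while the share that rose was lower. All LncND siRNA libraries were below all controls in 27 members and above them in 6, against 32.2% and 38.7% of all genes tested. The median log2 fold change of members was -0.074, a fold of 0.95, against 0.024 for all genes tested. All fold changes given are differences of log2(FPKM + 1). In bulk RNA, fewer cells of a type and less RNA per cell cannot be told apart.

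LncND siRNA replicate 1 stood above the other LncND siRNA libraries in 79 of 80 members with stable values, against 5220 of 12601 genes tested. It stood higher by a median of 0.20 on the log2 scale over these members, and of 0.0056 over all genes tested. Its FPKM summed to 1677634 over all rows and to 433703 over rows of 300 bp or longer, whereas the other siRNA libraries had at most 447196 over all rows. Without it, 46 members fell and 4 rose, against 31.5% and 36.7% of all genes tested, and the members' median was -0.14. The part of that short-row content in the result was not tested. Without scrambled siRNA replicate 1, 1 member rose, against 33.5% of all genes tested.

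**Figure D1:**
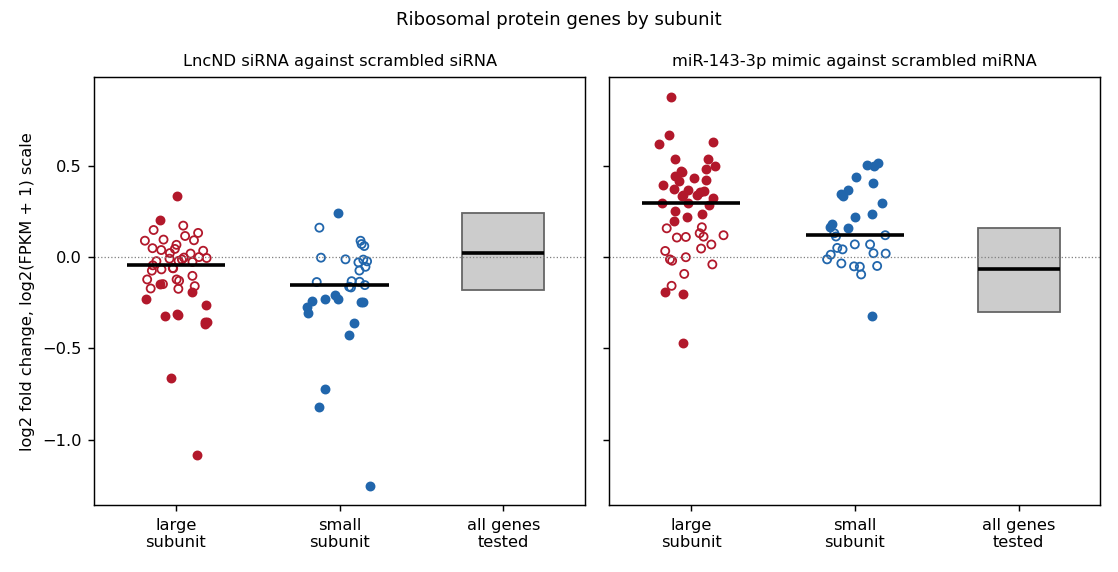
Log2 fold change of each tested ribosomal protein gene except RPL21, by subunit, with LncND siRNA (left) and with the miR-143-3p mimic (right). Filled points passed a limma adjusted p of 0.05, open points did not, black bars are medians, and the grey box spans the middle quartiles of all genes tested. With LncND siRNA, 5 genes lie far below the rest. With the mimic, most genes of both subunits lie above the median of all genes tested.

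The falls with LncND siRNA were uneven, and 5 genes stood well below the rest. RPS28, which sits near the exit of the mRNA from the 40S subunit (hg19 chr19:8386383-8387280, as in the tables), had 433, 331 and 331 FPKM with LncND siRNA, against 825, 880 and 889 FPKM with scrambled siRNA. Every LncND siRNA library was far below every control. The log2 fold change was -1.25 ± 0.098 (SE, n = 3 each, limma adjusted p = 2.08e-06). RPL14, a 60S protein (hg19 chr3:40498782-40503863), had 311, 252 and 256 FPKM, against 581, 554 and 595 FPKM, again without overlap. Its change was -1.08 ± 0.078 (limma adjusted p = 1.26e-06). RPS13, a 40S protein at the face that meets the large subunit, had 846, 671 and 682 FPKM with LncND siRNA and 1245, 1275 and 1343 FPKM with scrambled siRNA (-0.82 ± 0.090, limma adjusted p = 2.33e-05). RPS25, a protein of the 40S head that several viral internal ribosome entry sites need, had 1358, 1136 and 1129 FPKM, against 1990, 1857 and 2107 FPKM (-0.72 ± 0.091, limma adjusted p = 6.05e-05). RPL13A, which can leave the ribosome to act in the interferon-dependent GAIT complex, had 251, 209 and 211 FPKM, against 339, 364 and 358 FPKM (-0.66 ± 0.070, limma adjusted p = 1.72e-05). In none of the 5 did the groups overlap, and in each of them replicate 1 was the highest of the LncND siRNA libraries.

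**Figure D2:**
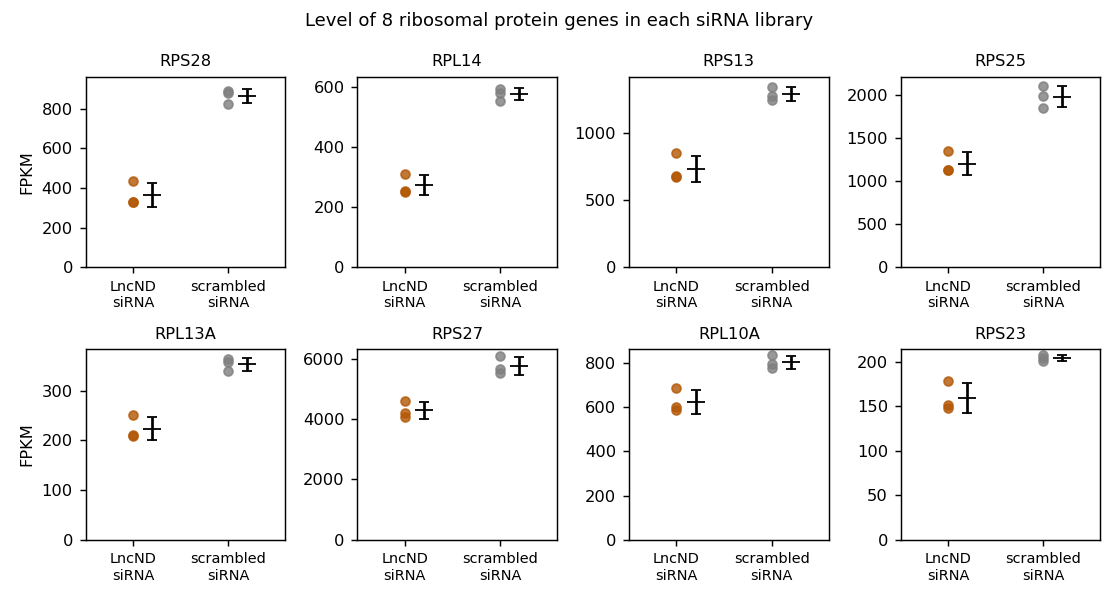
FPKM (linear axis from 0) of the 8 members with the largest changes past the threshold in the siRNA table. Each point is a library, 3 with LncND siRNA at the left and 3 with scrambled siRNA at the right of each panel, and black bars are the mean and SD. RPS28 averages 365 FPKM with LncND siRNA and 865 FPKM with scrambled siRNA, and the groups do not overlap in any panel.

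Smaller falls included genes for proteins at known working sites of both subunits. RPS27 had 4589, 4194 and 4072 FPKM with LncND siRNA, against 5650, 5539 and 6099 FPKM with scrambled siRNA (-0.43 ± 0.10, limma adjusted p = 0.00392, but 0.0859 under quantile normalization and 0.528 with no filter on low values). RPL10A, which forms the stalk beside the tRNA exit site, fell by 0.36 on the log2 scale (624 ± 54.8 against 802 ± 29.9 FPKM, SD, n = 3 each, limma adjusted p = 0.00114). RPS23, a protein of the decoding centre, also fell by 0.36 (159 ± 16.5 against 204 ± 3.16 FPKM, limma adjusted p = 0.000744). RPL3, which reaches towards the peptidyl transferase centre, had 786 ± 67.1 and 1002 ± 13.2 FPKM (-0.35, limma adjusted p = 0.00132). RPLP0, the base of the stalk that recruits the translation factors, averaged 1166 ± 85.0 and 1444 ± 31.9 FPKM (-0.31, limma adjusted p = 0.00334). The other members that fell were RPL4, RPL12, RPL22, RPL27A, RPL30, RPL7L1, RPL39L, RPS2, RPS3, RPS4X, RPS6, RPS9, RPS15A, RPS16 and RPS20, by 0.15 to 0.35 on the log2 scale. Of the 25 members that fell, the groups overlapped in RPL27A alone.

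The 3 members that rose did so by little. RPL36, a 60S protein, had 1283, 1269 and 1086 FPKM with LncND siRNA and 918, 926 and 1032 FPKM with scrambled siRNA (0.34 ± 0.083, limma adjusted p = 0.00482). RPS19, the gene most often mutated in Diamond-Blackfan anaemia, had 1340, 1172 and 1205 FPKM, against 996, 1060 and 1077 FPKM (0.24 ± 0.072, limma adjusted p = 0.0125). RPL27, a 60S protein, had 1532, 1388 and 1361 FPKM, against 1234, 1196 and 1285 FPKM (0.20 ± 0.072, limma adjusted p = 0.0288). The lowest LncND siRNA library was above the highest control in all 3. None of these 3 calls held under every alternative setting, whereas 13 of the 25 falls did.

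The miRNA libraries address what added miR-143-3p does to expression, and here the ribosomal protein genes were mostly higher. Of 81 members, 44 rose (54.3%) and 4 fell (4.94%), and 33 did not pass. Of all 12558 genes tested, 24.6% rose and 38.6% fell at the same limma threshold. The members' median log2 fold change was 0.20, a fold of 1.15, against -0.062 for all genes tested. Both mimic libraries were above both controls in 57 members and below both in 6, against 33.7% and 48.2% of all genes tested. Under quantile normalization 43 rose and 16 fell (33.0% and 30.7% of all genes tested). With no filter on low values 18 of 85 rose and 1 fell, against 8.54% and 14.2% of all genes. The rises were small, and none reached a log2 fold change of 1. Of the 44 rises, 18 held under every alternative setting.

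The largest rise was that of RPL34, a 60S protein (hg19 chr4:109541721-109551639), at 453 and 467 FPKM with the mimic, against 256 and 243 FPKM with scrambled miRNA. Its log2 fold change was 0.88 ± 0.046 (SE, n = 2 each, limma adjusted p = 4.11e-07). RPL15, mutated in some patients with Diamond-Blackfan anaemia, had 613 and 646 FPKM, against 400 and 390 FPKM (0.67 ± 0.048, limma adjusted p = 2.58e-06). RPL13, a 60S protein, had 239 and 248 FPKM, against 156 and 157 FPKM (0.63 ± 0.042, limma adjusted p = 1.61e-06). For all 3 genes the libraries of a group lay close together and the groups did not overlap. RPL37A, a zinc-binding 60S protein, had 3080 and 3093 FPKM with the mimic and 2162 and 2090 FPKM with scrambled miRNA (0.54 ± 0.059, limma adjusted p = 3.69e-05). RPL36 had 1426 and 1552 FPKM, against 1032 and 1018 FPKM (0.54 ± 0.058, limma adjusted p = 3.39e-05), and was thus higher with both treatments. Of 40S genes, RPS4X had 1649 and 1792 FPKM, against 1211 and 1190 FPKM (0.52 ± 0.059, limma adjusted p = 4.80e-05). RPS18 had 4066 and 4201 FPKM, against 3018 and 2799 FPKM (0.51 ± 0.067, limma adjusted p = 0.000126). RPS27A, which is made as a fusion to ubiquitin, had 810 and 812 FPKM, against 622 and 573 FPKM (0.44, limma adjusted p = 7.11e-05). With no filter on low values, the calls of RPL37A, RPS4X and RPS18 were lost (limma adjusted p = 0.106, 0.0511 and 0.232). Those of the other genes in this paragraph were kept.

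**Figure D3:**
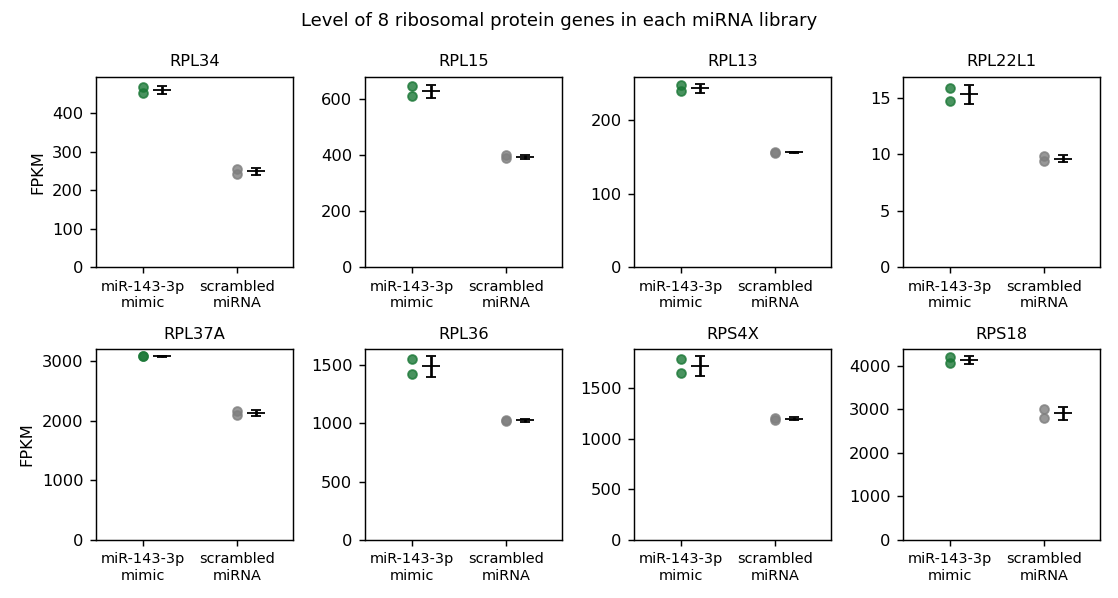
FPKM (linear axis from 0) of the 8 members with the largest changes past the threshold in the miRNA table. Each point is a library, 2 with the mimic at the left and 2 with scrambled miRNA at the right of each panel, and black bars are the mean and SD. All 8 are higher with the mimic without overlap, and RPL34 averages 460.1 FPKM with the mimic and 249.6 FPKM with scrambled miRNA.

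The 4 members that fell with the mimic were 2 like genes and 2 abundant core genes. RPL39L, a like gene of the exit tunnel protein RPL39 that is known from testis, had 32.6 and 33.6 FPKM with the mimic, against 45.6 and 46.8 FPKM with scrambled miRNA (-0.47 ± 0.044, limma adjusted p = 1.38e-05). RPS27 had 4749 and 5181 FPKM, against 6380 and 6021 FPKM (-0.32 ± 0.076, limma adjusted p = 0.00446). RPL26L1 had 34.1 and 38.6 FPKM, against 41.9 and 41.9 FPKM (-0.20 ± 0.058, limma adjusted p = 0.0119). RPLP0 had 1286 and 1375 FPKM, against 1567 and 1473 FPKM (-0.19 ± 0.060, limma adjusted p = 0.0180). Groups did not overlap for any of them, but only the fall of RPL39L held under every alternative setting. That of RPS27 turned to 0.043 under quantile normalization (limma adjusted p = 0.280), and its adjusted p ranged from 2.03e-05 to 0.708 over the alternatives. Without mimic replicate 1 the effect of RPL26L1 was -0.12.

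Large subunit genes stood higher relative to small subunit genes with both treatments than in their controls. With LncND siRNA, 12 of 50 large subunit genes fell and 2 rose (median -0.052), and 13 of 31 small subunit genes fell and 1 rose (median -0.15), against 30.3% and 36.6% of all genes tested. With the mimic, 30 large subunit genes rose and 3 fell (median 0.29), and 14 small subunit genes rose and 1 fell (median 0.12), against 24.6% and 38.6% of all genes tested. The large minus small difference of medians was 0.10 with LncND siRNA and 0.17 with the mimic. No test was made, because the genes were chosen with results known.

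Median levels can also be read library by library, over members without like genes and RPL21. The gene at the median can differ between libraries, so these values are not differences of median effects. In both mimic libraries the large subunit median was the level of RPL12, which did not pass with the mimic (-0.019). The median log2 level of large subunit genes minus that of small subunit genes was -0.13, -0.14 and -0.17 with LncND siRNA, against -0.32, -0.27 and -0.32 with scrambled siRNA. With the mimic it was -0.012 and 0.090, against -0.26 and -0.30 with scrambled miRNA. The groups did not overlap in either table. In FPKM, the median of small subunit genes was 1180, 1035 and 1051 with LncND siRNA, against 1236, 1184 and 1288 with scrambled siRNA. Large subunit genes had medians of 1082, 939 and 932, against 987, 984 and 1032. In the siRNA table it was thus the small subunit median that differed without overlap between the groups. With the mimic the large subunit median was 1266 and 1359, against 1022 and 966 with scrambled miRNA, and the small subunit median was 1277 and 1277, against 1221 and 1190. Both medians were higher with the mimic, the large subunit one by more. Without LncND siRNA replicate 2 the difference of median effects in the siRNA table dropped to 0.058, and it was 0.064 under quantile normalization.

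**Figure D4:**
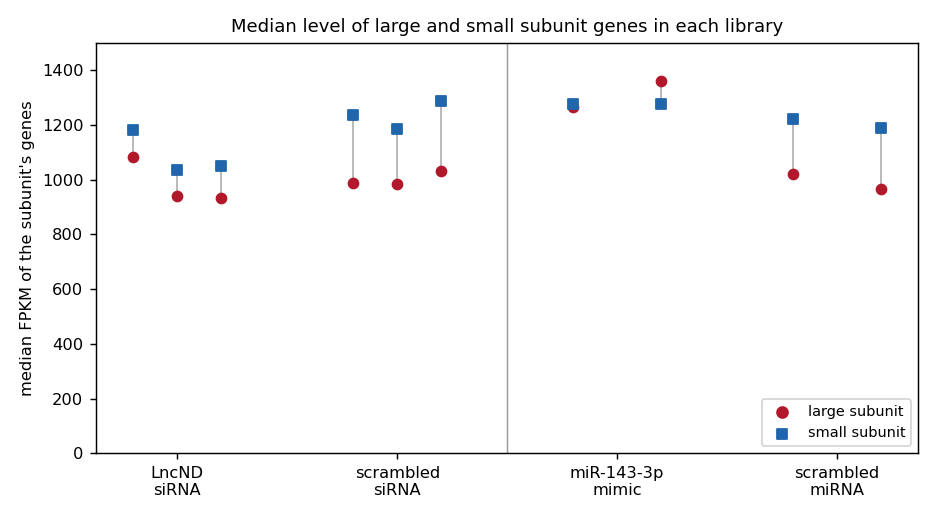
Median FPKM of large subunit genes (red circles) and small subunit genes (blue squares) in each of the 10 libraries, joined by a grey line, on a linear axis from 0. Like genes and RPL21 are left out. The grey vertical line divides the 2 tables. The small subunit median is above the large one in every library except mimic replicate 2, and the gap is widest in the scrambled controls.

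The 2 treatments had partly like profiles over the members. Across the 80 members with stable values, the 2 log2 fold changes had a Pearson r of 0.42 and a Spearman rho of 0.57. These values are a description across genes that share transcript features, and the 2 comparisons share no library. Within the 49 large subunit genes r was 0.46, and within the 31 small subunit genes it was 0.33. RPS27, RPLP0 and RPL39L fell and RPL27 and RPL36 rose with both treatments (for RPS27 with the mimic not under quantile normalization). None of these genes kept both calls under every alternative run. With LncND siRNA the rise of RPL27 was lost under 6 of 14 alternatives, that of RPL36 under 1 and the fall of RPL39L under 2. The fall of RPLP0 with the mimic was lost under several. In contrast, 7 members fell with LncND siRNA and rose with the mimic, namely RPL7L1, RPL10A, RPL13A, RPS3, RPS4X, RPS15A and RPS28. Of these 7, RPL13A alone kept both calls under every alternative run. The rise of RPS28 with the mimic was lost under 5 of 12 alternatives (adjusted p up to 0.284) and that of RPL10A under 4, while the fall of RPS4X with LncND siRNA was lost under 7 of 14. The largest group, 35 members, rose with the mimic and did not pass with LncND siRNA. The same pairs of calls were not counted over all genes, so these numbers have no background beside them.

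**Figure D5:**
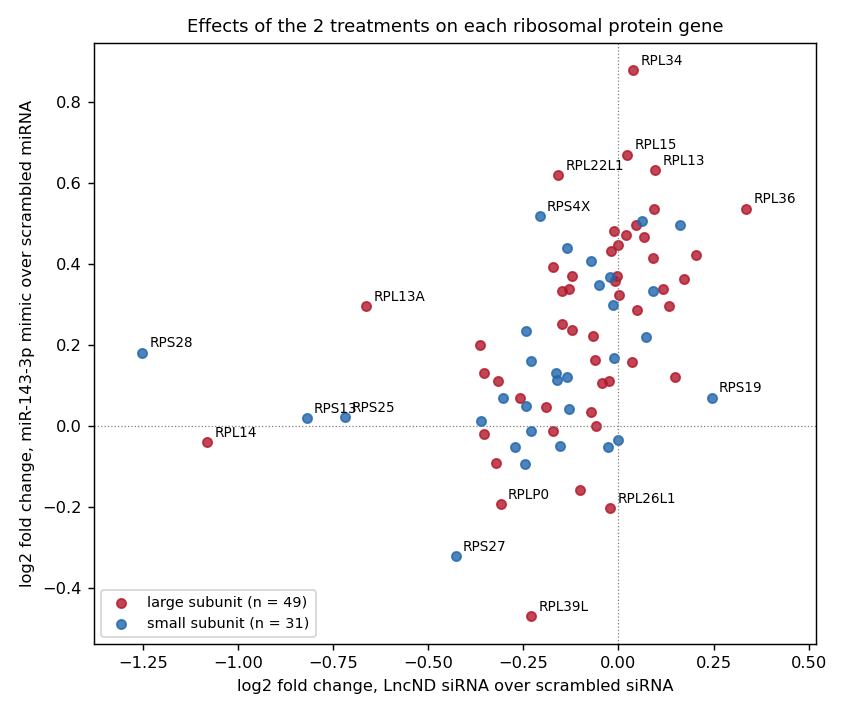
Log2 fold change with LncND siRNA (x axis) against that with the mimic (y axis) for 80 ribosomal protein genes, large subunit in red and small subunit in blue. RPS28, RPL14, RPS13 and RPS25 lie far to the left at y values between -0.039 and 0.18, apart from a cloud that slopes upwards from RPL39L and RPS27 to RPL36.

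A single limma fit of the 10 libraries tested whether the effects differed. Of 81 members, 48 had a higher effect with the mimic than with LncND siRNA (59.3%, against 22.0% of the 12327 genes tested in both tables), 1 (RPL39L) a lower one (against 38.1%) and 32 did not pass. The median difference was 0.33 for members and -0.080 for all genes. The largest was that of RPS28 (1.43 ± 0.14, limma adjusted p = 1.79e-06), with an effect of 0.18 ± 0.062 with the mimic, at 1045 and 1127 FPKM against 1001 and 915 FPKM. RPL14 followed (1.04 ± 0.11), at 572 and 617 FPKM with the mimic and 623 and 598 FPKM with scrambled miRNA, values that overlapped. RPL13A differed by 0.96 ± 0.098, since it rose with the mimic, at 372 and 361 FPKM against 304.5 and 292 FPKM (0.30, limma adjusted p = 0.000322). For RPS13 and RPS25 the differences were 0.84 ± 0.13 and 0.74 ± 0.13, with mimic effects of 0.020 and 0.022 that did not pass (limma adjusted p = 0.789 and 0.768) and that quantile normalization turned to -0.18 and -0.13. RPL34, the other extreme, differed by 0.84 ± 0.11, with a LncND siRNA effect of 0.039 that did not pass (limma adjusted p = 0.670). The lower effect of RPL39L (-0.24 ± 0.096, limma adjusted p = 0.0444) was lost when any 1 of 8 libraries was left out, all but scrambled siRNA replicate 2 and LncND siRNA replicate 3, with adjusted p-values of 0.0575 to 0.118.

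Like genes and their partners often received different calls. RPL22L1 had 14.7 and 15.9 FPKM with the mimic, against 9.81 and 9.37 FPKM with scrambled miRNA (0.62 ± 0.059, limma adjusted p = 1.53e-05). Its partner RPL22, known in mouse to repress Rpl22l1, had 182 and 201 FPKM, against 203 and 204 FPKM, and did not pass (-0.092 ± 0.052, limma adjusted p = 0.149). With LncND siRNA RPL22 fell, at 168, 150 and 141 FPKM against 195, 181 and 198 FPKM (-0.32 ± 0.064, limma adjusted p = 0.00135), and RPL22L1, at 8.69, 6.72 and 6.82 FPKM against 8.85, 7.03 and 9.29 FPKM, did not pass (-0.16 ± 0.10, limma adjusted p = 0.206). RPL7L1, named for its likeness to RPL7, fell with LncND siRNA (59.8 ± 2.34 against 66.4 ± 1.68 FPKM, -0.15, limma adjusted p = 0.00865) and rose with the mimic (53.1 ± 3.13 against 41.9 ± 1.83 FPKM, 0.33, limma adjusted p = 0.000427). RPL7 itself did not pass with LncND siRNA (0.00073) and rose with the mimic too (0.32). RPL26 rose with the mimic (0.36, limma adjusted p = 0.000397), with which RPL26L1 fell. RPL39L fell with LncND siRNA too, at 34.4, 30.6 and 27.8 FPKM against 35.5, 38.2 and 35.3 FPKM (-0.23 ± 0.068, limma adjusted p = 0.0128), whereas RPL39 did not pass with either treatment. RPS27L, left out by the rule, is a known p53 target and the like gene of RPS27. It averaged 122 ± 3.92 FPKM with LncND siRNA and 56.9 ± 2.86 FPKM with scrambled siRNA (1.08, limma adjusted p = 4.68e-08). With the mimic it averaged 41.8 ± 2.79 FPKM, against 74.0 ± 2.62 FPKM with scrambled miRNA (-0.81, limma adjusted p = 1.57e-06).

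RPL5 and RPL11 form, with 5S ribosomal RNA, the particle that binds MDM2 when ribosome assembly is disturbed. Neither passed with LncND siRNA (-0.12 ± 0.070 and 0.049 ± 0.075, limma adjusted p = 0.152 and 0.576). Both rose with the mimic, RPL5 with 934 and 999 FPKM against 750 and 744 FPKM (0.37 ± 0.052, limma adjusted p = 0.000198), and RPL11 with 1614 and 1715 FPKM against 1384 and 1344 FPKM (0.29 ± 0.057, limma adjusted p = 0.00158). RPL10, which joins the 60S subunit late in its assembly, did not pass with LncND siRNA (355 ± 35.0 against 386 ± 12.0 FPKM) and rose with the mimic (450 ± 4.88 against 381 ± 23.4 FPKM, 0.24, limma adjusted p = 0.00290). In the stalk, RPLP1 and RPLP2, the partners of RPLP0, did not pass with either treatment.

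RPL21 alone among tested members varied by more than 0.5 on the log2 scale within a group, in both tables, and is reported as uncertain. It was listed at 0.00502, 7.85 and 0.00825 FPKM with LncND siRNA and at 13.1, 0.00763 and 7.02 FPKM with scrambled siRNA. In the miRNA table it was listed at 0.00828 and 0.0156 FPKM with the mimic and at 15.5 and 0.00569 FPKM with scrambled miRNA. All 10 values are far below those of the other core genes. GENCODE lists 66 pseudogenes of RPL21, and the tables hold a row named RPL21P28 on nearly the same locus (hg19 chr13:27825692-27830699), with a status word in the place of a value in each library. RPL13A also shares its locus with a row without values, RPL13AP5, but varied little within groups. In all, 28 rows were named as copies of 17 members, and the 26 with values summed to 135 FPKM with LncND siRNA and 144 FPKM with scrambled siRNA, and to 148 FPKM with the mimic and 142.7 FPKM with scrambled miRNA. The copies of RPL13A summed to 23.9 FPKM with LncND siRNA and 29.2 FPKM with scrambled siRNA, but the row on its own locus holds no values. RPS28, RPL14, RPS13 and RPS25 had no row named as a copy, while GENCODE lists 3, 4, 1 and 1 pseudogenes of them. The part of reads shared with copies in these changes was not tested. The number of GENCODE pseudogenes had a Spearman rho with the within-group range of -0.016 and a Pearson r of 0.33 over 81 members for the siRNA libraries, and of 0.17 and 0.35 for the miRNA libraries.

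Genes that act with the ribosome were counted from lists. Their counts are to be read against all genes tested, of which 30.3% fell and 36.6% rose with LncND siRNA, and 38.6% fell and 24.6% rose with the mimic. Of 19 translation genes known for TOP mRNAs, 12 fell and 1 rose with LncND siRNA (median -0.27), and 5 fell and 7 rose with the mimic (median 0.023). The splicing factor HNRNPA1 fell to 380 ± 25.8 FPKM with LncND siRNA, against 567 ± 7.92 FPKM with scrambled siRNA (-0.58, limma adjusted p = 1.16e-05), and the helicase EIF4A2 rose to 159 ± 5.63 FPKM, against 108 ± 4.15 FPKM (0.55, limma adjusted p = 2.71e-06). With the mimic, the nucleolar chaperone NPM1 was at 411 ± 24.3 FPKM, against 554 ± 5.91 FPKM (-0.43, limma adjusted p = 7.04e-05), and the elongation factor EEF2 at 874 ± 5.28 FPKM, against 658 ± 14.9 FPKM (0.41, limma adjusted p = 5.75e-05). FAU, which encodes a ribosomal protein as a fusion to a ubiquitin-like protein and is not named RPL or RPS, averaged 546 ± 36.1 FPKM with LncND siRNA and 485 ± 14.8 FPKM with scrambled siRNA and rose (0.17, limma adjusted p = 0.0302). It did not pass with the mimic (0.0011, limma adjusted p = 0.988).

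Of 14 chaperones and nuclear importers of ribosomal proteins, 10 fell and 1 rose with LncND siRNA (median -0.17, against 30.3% and 36.6% of all genes), and 3 fell and 3 rose with the mimic (median -0.066, against 38.6% and 24.6%). The importers IPO5 (33.2 ± 0.912 against 52.1 ± 0.130 FPKM, -0.64) and IPO7 (43.8 ± 0.685 against 62.3 ± 1.53 FPKM, -0.50) had the largest falls with LncND siRNA. With the mimic IPO5 fell as well (35.9 ± 0.856 against 50.8 ± 0.354 FPKM, -0.49), and GRWD1, the chaperone of RPL3, rose (13.9 ± 0.557 against 10.5 ± 0.0605 FPKM, 0.38). Of 15 growth control genes, 3 rose and 3 fell with LncND siRNA (median -0.046), and 5 rose and 3 fell with the mimic (median 0.080). The transcription factor MYCN rose to 4.16 ± 0.507 FPKM with LncND siRNA, against 1.07 ± 0.0917 FPKM (1.31), and MYC fell to 10.0 ± 0.326 FPKM, against 18.9 ± 0.372 FPKM (-0.85). With the mimic, RPTOR, the scaffold of mTOR complex 1, was at 9.62 ± 0.309 against 6.40 ± 0.221 FPKM, and its inhibitor TSC2 at 38.2 ± 1.87 against 26.3 ± 0.158 FPKM (both 0.52).

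Of 8 genes of ribosome loss and the sensing of free ribosomal proteins with a row, 4 rose and 2 fell with LncND siRNA (36.6% and 30.3% of all genes), and 1 rose and 4 fell with the mimic (24.6% and 38.6%). CDKN1A, the p53-induced cell cycle inhibitor, averaged 303 ± 10.6 FPKM with LncND siRNA, against 81.9 ± 2.83 FPKM, and 47.6 ± 2.02 FPKM with the mimic, against 123 ± 0.623 FPKM. MDM2, the ubiquitin ligase of p53, averaged 30.6 ± 1.48 FPKM with LncND siRNA and 18.0 ± 0.671 FPKM with scrambled siRNA (0.73, limma adjusted p = 4.39e-07). With the mimic MDM2 averaged 10.7 ± 0.507 FPKM, against 17.7 ± 0.108 FPKM with scrambled miRNA (-0.68, limma adjusted p = 5.26e-06). CDKN1A, MDM2 and RPS27L thus moved the same way within each treatment and in opposite directions between the treatments.

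Members were also split by whether a tract begins at the annotated start, without a test. The 47 tested members with a tract there had a median log2 fold change of -0.073 with LncND siRNA and 0.16 with the mimic. The 18 with a window but no tract there had -0.13 and 0.27. Some of these 18, such as RPS28, RPL10A and RPL4, have a run of C and T that begins a few bases after the start. The split therefore rests on where the start is annotated and does not compare TOP mRNAs with others. RPS28, with the largest fall, has no tract at the annotated start, but a run of C and T begins at the base after it. RPL14, RPS13, RPS25 and RPL13A carry a tract at the start, as do RPL34 and RPS18, which did not pass with LncND siRNA. The median transcript length of a member in GENCODE had a Spearman rho of -0.34 with the effect of LncND siRNA and of -0.022 with that of the mimic, over 80 members.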

How the data were processed

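Total RNA came from the MirVana kit and was made into stranded poly(A) libraries, per the labels' protocols. Per the submitters' processing notes, TopHat (given as version 1.0.0), Cufflinks and hg19 were used. The annotation, strand setting and filter behind the files were not given in the sources used here. The authors deposited FPKM values in a table for each experiment. Status words replaced numbers in 292 rows of the siRNA table and 282 of the miRNA table, of 25275 rows each, and those rows were not used. The 1304 rows off the assembled chromosomes were dropped too. Of several rows for a gene, the one with the highest mean FPKM was kept.

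Each table was analysed by itself as log2(FPKM + 1) in limma 3.58.1 (R 4.3.3), with a mean-variance trend and a minimum mean of 1 FPKM. Tests were 2-sided, adjusted by Benjamini and Hochberg's method over all genes tested, at a threshold of 0.05. The code was tested on simulated data. FPKM is relative to a library's total, so a few abundant transcripts can lower all other values, and read counts were not used. Levels are mean ± SD and fold changes ± SE. Depth was estimated from value steps of olfactory receptor genes. Pseudogene numbers and transcript lengths come from GENCODE by gene name, and sequences from RefSeq.

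Members, lists and settings were chosen with earlier results of these data known. Named members were the 8 with the largest change past the threshold in each comparison, the 4 with the largest within-group range and the 3 with the highest level in each table, the 4 with the largest difference of effects, like genes with their partners, and RPL5 and RPL11. From each list, the 2 genes with the largest change past the threshold were named. RPL27, RPS19, RPLP0, RPLP1, RPLP2, RPS27A and RPS27L fall outside that rule and were chosen after their values were seen. Alternatives were the pseudocount, the filter, 3 scalings, summed rows, the replicate block and each library left out.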

Additional observations from a re-analysis of the deposited data

Results flagged for a closer look

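For 21 of the members named by rule, the effect of the mimic differed from that of LncND siRNA in the limma fit of all 10 libraries (adjusted p under 0.05). The differences below are mimic effect minus LncND siRNA effect, on the log2 scale. Of 40S genes, they were 1.43 for RPS28, 0.84 for RPS13, 0.74 for RPS25, 0.73 for RPS4X, 0.45 for RPS18 and 0.37 for RPS23. Among 60S genes they were 1.04 for RPL14, 0.96 for RPL13A, 0.84 for RPL34, 0.65 for RPL15, 0.56 for RPL10A, 0.54 for RPL13, 0.49 for RPL5, 0.48 for RPL3, 0.44 for RPL37A, 0.37 for RPL26, 0.36 for RPL10 and 0.32 for RPL7. Like genes had differences of 0.78 for RPL22L1, 0.48 for RPL7L1 and -0.24 for RPL39L. For RPS28, RPL14, RPS13, RPS25 and RPL13A most of the difference lies in the fall with LncND siRNA, and for RPL34, RPL15 and RPL13 in the rise with the mimic. The call of RPL39L (limma adjusted p = 0.0444) was lost when any 1 of 8 libraries was left out, with adjusted p-values over the alternatives of 0.0045 to 0.282.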

How the results depend on the processing

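With no filter on low values, 0 members rose (2 at an unadjusted limma p under 0.05) and 13 fell with LncND siRNA (21.4% and 15.1% of all genes), 18 rose and 1 fell with the mimic (8.54% and 14.2% of all genes), and 31 had a higher and 0 a lower effect of the mimic (0 at an unadjusted p under 0.05). Quantile normalization gave 14 risen beside 36 fallen with LncND siRNA (31.9% and 37.0% of all genes), with a large minus small difference of 0.064. With the mimic it gave 43 risen beside 16 fallen (33.0% and 30.7% of all genes), with a median of 0.094 and 5 lower effects. It reversed the mimic effects of RPS13 (-0.18), RPS25 (-0.13) and RPS27 (0.043). Under median-ratio scaling 2 members fell with the mimic (32.0% of all genes), the median was 0.27, and 0 had a lower effect (0 at an unadjusted p under 0.05). Scaling to rows of 300 bp or longer gave 8 risen with LncND siRNA (35.0% of all genes) and 2 lower effects. For the counts of higher and lower effects, shares over all genes were taken in the main fit alone (22.0% and 38.1%). Under these settings they have no background beside them. The cause of the changes between settings was not tested.

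Leaving out each library in turn, 1 to 4 members rose and 18 to 46 fell with LncND siRNA. Of all genes, 33.5% to 36.7% rose and 26.9% to 31.5% fell in these runs. The members' median was -0.14 to -0.050 and the large minus small difference 0.058 to 0.13. With the mimic 38 to 49 rose and 2 to 6 fell, with a median of 0.14 to 0.25 and a large minus small difference of 0.13 to 0.21. Of all genes, 20.8% to 22.6% rose and 33.2% to 37.9% fell with the mimic when a miRNA library was left out. Counts of higher and lower effects of the mimic were chosen after seeing the data and are not given for the runs with a library left out. Where 1 mimic or control library was left, it was assumed to vary like the other group. The mimic counts and shares of these runs rest on that assumption.

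With the replicate block, 1 member rose and 19 fell with LncND siRNA (35.0% and 28.7% of all genes), and 38 rose and 3 fell with the mimic (25.8% and 39.8%). Same-numbered libraries had deviations correlated at 0.068, 0.21 and -0.053 (siRNA) and at 0.135 (miRNA), which does not show whether the numbers mark a shared batch. Over the rule-named members with a test, 1274 results under the alternatives kept their direction and side of the threshold, 57 lost a call, 67 gained one and 3 reversed. With 2 mimic libraries and FPKM in place of counts, small effects are weakly determined.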
